A study of Homo sapiens with 8 samples.

Results

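The AP-1 transcription factors were examined in 4 lung cancer cell lines by RNA-seq and by ChIP-seq of H3K27ac, a histone acetylation found at active promoters and enhancers. The members were the FOS family genes FOS, FOSB, FOSL1 and FOSL2, the JUN family genes JUN, JUNB and JUND, and the related genes ATF3 and BATF3. They were found by matching the Ensembl identifier of each row to the gene symbol in GENCODE release 44. All 9 were present among the 43869 genes of the table, and 8 of them were among the 12701 genes counted as expressed, that is with a level of at least log2 of 25 in at least 1 line. BATF3 was not. A total of 96 of the 126470 H3K27ac peaks lay within 20 kb of a member and were paired with it.

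The naive line was H3122, an established lung adenocarcinoma line driven by the EML4-ALK fusion kinase and never exposed to an inhibitor. Its derivatives erCriz0, erAlec0 and erLor0 had evolved resistance to the ALK inhibitors crizotinib, alectinib and lorlatinib under gradually raised doses, and were kept with the drug at 0.5 µM for crizotinib and 2 µM for both alectinib and lorlatinib. All lines were grown in RPMI with serum and gave RNA after 48 h without inhibitor. The study's ChIP methods do not state whether the cells were on or off inhibitor. Each line is a single derivative and gave 1 RNA library and 1 ChIP library, so that no value has a replicate error, no test was possible and every difference compares libraries and not conditions. Values are rlog values, log2 levels that the authors computed from read counts and that shrink the differences of features with few reads. Read depth cannot be recovered from them. Changes are differences in rlog between a resistant line and naive cells, negative where the resistant line was lower. A gene or peak is said to have risen or fallen where this difference was at least 1, the limit that the study's methods set for genes and that was used here for peaks too, and all 3 changes share the naive library. The epithelial markers EPCAM, CDH1, KRT7, KRT8, KRT18 and KRT19 were expressed, as was the lung lineage factor NKX2-1. The lung markers SFTPB and NAPSA and the immune markers PTPRC, CD3E and CD14 were below the expressed limit.

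AP-1 is a dimer of basic leucine zipper proteins. FOS proteins pair with JUN proteins, JUN proteins also pair with each other, and ATF3 and BATF3 join JUN proteins in further dimers. The dimers bind TGACTCA, and dimers that hold an ATF protein also bind the cyclic AMP response element TGACGTCA. Growth factor receptors and stress reach AP-1 through the ERK, JNK and p38 kinases, which raise transcription of FOS and JUN within minutes and phosphorylate their proteins. In epithelial cancers AP-1 is known for driving matrix proteases, cytokines and invasion genes.

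Promoters with TGACTCA, TGACGTCA or the variant TGACATCA are shown for FOSL2, JUND and JUN. These are matches of letters, and binding was not measured. A RefSeq promoter (GRCh38.p14), identical to hg38, was found for 7 of the 9 members, with none for FOSL1 and BATF3. The upstream and downstream promoters of ATF3 lie at chr1:212565187-212565431 and chr1:212614798-212615042. Neither covers the canonical ATF3 start at chr1:212608761, whose promoter was not searched for motifs. The windows below run 5′ to 3′ on the gene's strand from 220 bases before to 25 bases after the start, and capitals mark the motif.
FOSL2 promoter, chr2:28392638-28392882, + strand, with TGACTCA in capitals: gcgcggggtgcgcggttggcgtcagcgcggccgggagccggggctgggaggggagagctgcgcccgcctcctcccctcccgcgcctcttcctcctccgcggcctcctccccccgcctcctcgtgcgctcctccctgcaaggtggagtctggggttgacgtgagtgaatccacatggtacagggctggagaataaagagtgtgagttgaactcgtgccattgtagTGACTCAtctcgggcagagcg
JUN promoter, chr1:58784023-58784267, - strand, with TGACATCA in capitals: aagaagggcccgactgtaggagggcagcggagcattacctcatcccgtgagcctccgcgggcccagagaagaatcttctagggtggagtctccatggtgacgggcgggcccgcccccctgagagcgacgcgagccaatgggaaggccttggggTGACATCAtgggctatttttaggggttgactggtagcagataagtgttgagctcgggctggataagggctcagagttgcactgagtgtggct
JUND promoter, chr19:18281598-18281842, - strand, with TGACGTCA in capitals: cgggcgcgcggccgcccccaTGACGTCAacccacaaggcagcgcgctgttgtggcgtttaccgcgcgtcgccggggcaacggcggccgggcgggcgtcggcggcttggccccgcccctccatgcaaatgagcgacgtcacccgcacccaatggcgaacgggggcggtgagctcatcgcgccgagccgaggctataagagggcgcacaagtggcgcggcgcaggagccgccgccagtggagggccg
In windows of 300 bases from 250 before to 50 after the start, TGACTCA (either strand) was found in FOSL2 alone of the 7 members, at position 5 downstream of the start, and in 4.95% of all 35116 promoters. The variant TGACATCA was in JUN, at position -67 from the start, and in the upstream promoter of ATF3, and in 2.61% of all promoters. TGACGTCA was in JUND, at position -200, and in 1.85% of all promoters. The letters TATAAA were in FOS, FOSB, JUNB and the downstream promoter of ATF3, and in 11.5% of all promoters.

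RNA of the FOS family differed most in FOSL2. FOSL2 encodes FRA-2, a FOS protein without the strong activation domain of FOS, and lies at chr2:28392448-28417317. Its level was 10.20 in naive cells, 11.48 in erCriz0, 10.52 in erAlec0 and 10.36 in erLor0. FOSL2 rose by 1.28 in erCriz0, 2.42-fold, a change reached by 1.62% of expressed genes, and was higher by 0.32 in erAlec0 and 0.16 in erLor0. FOSL2 was the only member to rise in any line, beside 2.65% of expressed genes that rose and 1.65% that fell in erCriz0. No member rose or fell in erAlec0, where 2.46% of expressed genes rose and 2.07% fell, or in erLor0, where 1.10% rose and 0.740% fell.

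FOS, the founding immediate early member at chr14:75278826-75282230, had levels of 9.64 in naive cells, 9.63 in erCriz0, 9.94 in erAlec0 and 9.24 in erLor0. Its lowest level was thus in erLor0, 0.40 below naive cells. FOSB, a second immediate early member at chr19:45467995-45475179, had levels of 8.41, 7.70, 8.72 and 8.66 in the same order. It was lower by 0.71 in erCriz0 and higher by 0.31 and 0.25 in the other resistant lines. FOSL1, which encodes FRA-1, a FOS protein linked to invasion and lying at chr11:65892049-65900573, had levels of 9.24, 8.78, 9.65 and 9.67. FOSB and FOSL1 thus had the same order of signs, below naive cells in erCriz0 and above them in erAlec0 and erLor0.

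RNA of the JUN family differed most in JUND and least in JUN. JUNB, at chr19:12791486-12793315, is a JUN protein with weaker activation of many JUN targets, and had levels of 11.93 in naive cells, 11.48 in erCriz0, 12.35 in erAlec0 and 11.72 in erLor0. JUND, at chr19:18279694-18281622, is expressed in most resting cells and had levels of 8.98, 8.11, 9.57 and 9.0. It was lower by 0.87 in erCriz0 and higher by 0.59 in erAlec0, the widest spread of any member at 1.45. JUN, the main partner of FOS, at chr1:58780791-58784047, had levels of 9.28, 9.61, 9.57 and 9.44. Its range of 0.33 over the 4 lines was the narrowest of the members.

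ATF3, a stress-induced member at chr1:212565334-212620777, had levels of 8.43 in naive cells, 8.06 in erCriz0, 9.34 in erAlec0 and 9.03 in erLor0. ATF3 was higher by 0.91 in erAlec0, 1.89-fold, and by 0.60 in erLor0, changes reached by 3.08% and 4.25% of expressed genes, and lower by 0.37 in erCriz0. BATF3, best known from dendritic cells, lies at chr1:212686417-212699840 and had levels from 3.06 in erAlec0 to 3.48 in erCriz0, all below the expressed limit of 4.64.

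**Figure D1:**
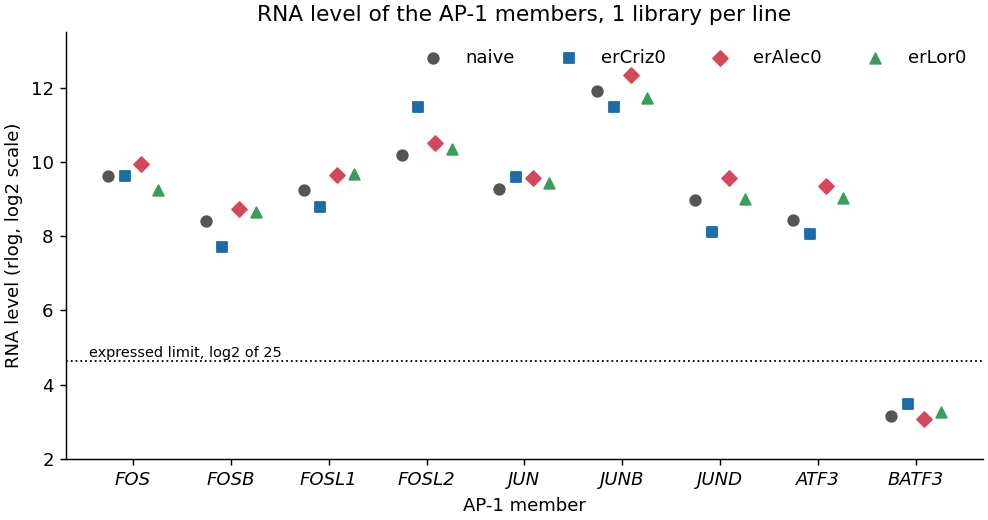
RNA level (rlog, log2 scale) of the 9 AP-1 members in naive, erCriz0, erAlec0 and erLor0 cells, with 1 point per library and no error bars since each line has 1 library. FOSL2 stands at 11.48 in erCriz0 against 10.20 in naive cells, JUND and FOSB are lowest in erCriz0, and BATF3 lies below the dotted expressed limit of log2 of 25.

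Levels of different genes were compared per length, as rlog minus log2 of the length in kb of the canonical transcript. On this per-kb scale JUNB was the highest of the 8 expressed members in all 4 lines, at 11.06 in naive cells against 8.56 for FOS, the next. FOSB was the lowest of the 8 in all 4 lines, at 6.49 in naive cells. FOSL2 was the seventh of 8 in naive cells at 7.45 and the second in erCriz0 at 8.73. JUN at 7.58, ATF3 at 7.47 and FOSL2 at 7.45 were neighbours in naive cells, with 1 library and no spread to set them apart by.

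Considered as a list, the members stood on opposite sides of naive cells in different lines. In erCriz0, 2 of the 8 expressed members were higher than in naive cells and the median change was -0.40, against -0.02 over all expressed genes. In erAlec0 all 8 were higher, with a median of 0.36 against 0.00, and in erLor0 6 of 8 were higher, with a median of 0.16 against 0.00. With BATF3 included the medians were -0.37, 0.32 and 0.16. The plot of changes shows FOSL2 and JUN as the 2 expressed members above naive cells in erCriz0.

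**Figure D2:**
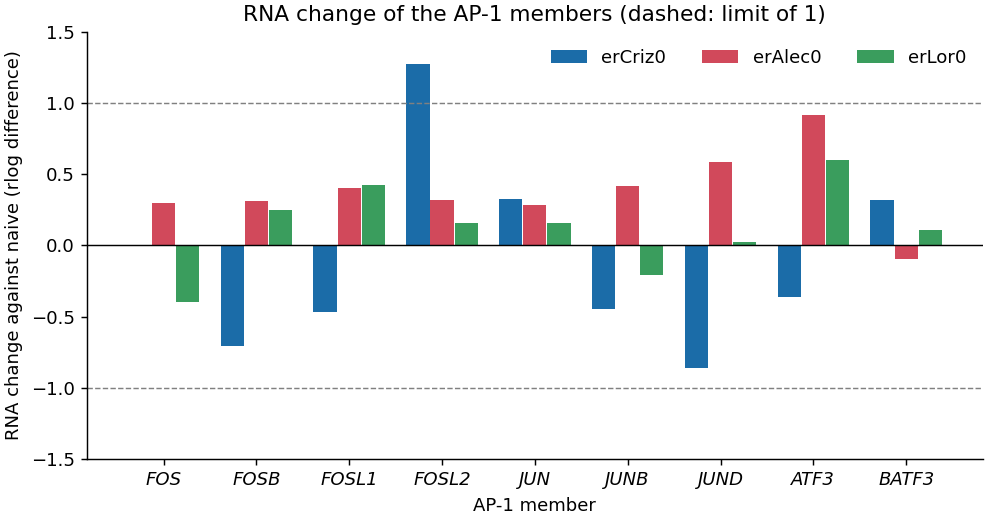
RNA change against naive cells (rlog difference) of each AP-1 member in erCriz0, erAlec0 and erLor0, with 1 library per line and no error. FOSL2 in erCriz0, at 1.28, is the only bar past the dashed limit of 1, and the 8 expressed members all lie above 0 in erAlec0.

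The resistant lines were also set against each other directly, which leaves out the naive library. In erAlec0, 6 of the 8 expressed members were higher than in erCriz0, with a median difference of 0.87 against 0.00 over all expressed genes. FOSB was higher by 1.02, JUND by 1.45 and ATF3 by 1.28, so that 3 of 8 passed 1, a difference in this direction reached by 3.22% of expressed genes, while 2.68% were lower by at least 1. FOSL2 was lower in erAlec0 than in erCriz0 by 0.96. In erLor0, 5 of 8 members were higher than in erCriz0, with a median difference of 0.56, none by 1 or more, where 2.64% of expressed genes were. FOSL2 was lower than in erCriz0 by 1.12, past a limit that 2.73% of expressed genes passed in this direction. Between erLor0 and erAlec0, 1 of the 8 members, FOSL1, was higher in erLor0, by 0.02, and FOS was lower by 0.70, a difference that 3.86% of expressed genes reached in either direction.

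H3K27ac peaks near the members rose most often in erCriz0. Of the 96 peaks, 12 (12.5%) rose and 1 (1.04%) fell in erCriz0, where 7.00% of all peaks rose and 5.94% fell. In erAlec0, 2 of the 96 rose and 3 fell, below the 14.1% and 9.41% of all peaks. In erLor0, 6 of the 96 rose and 5 fell, near the 7.45% and 8.82% of all peaks. Over the 96 peaks the 3 lines in this order had median changes of 0.11, -0.27 and -0.01, against 0.00 over all peaks in each line. Without the peaks of FOSL2 the median in erCriz0 turned to -0.03. Of the 12 risen peaks in erCriz0, 7 belonged to FOSL2, 3 to JUN and 2 to ATF3, and without those of FOSL2 5 of 79 rose. Of the 96 peaks, 94 were also within 20 kb of at least 1 other gene.

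**Figure D3:**
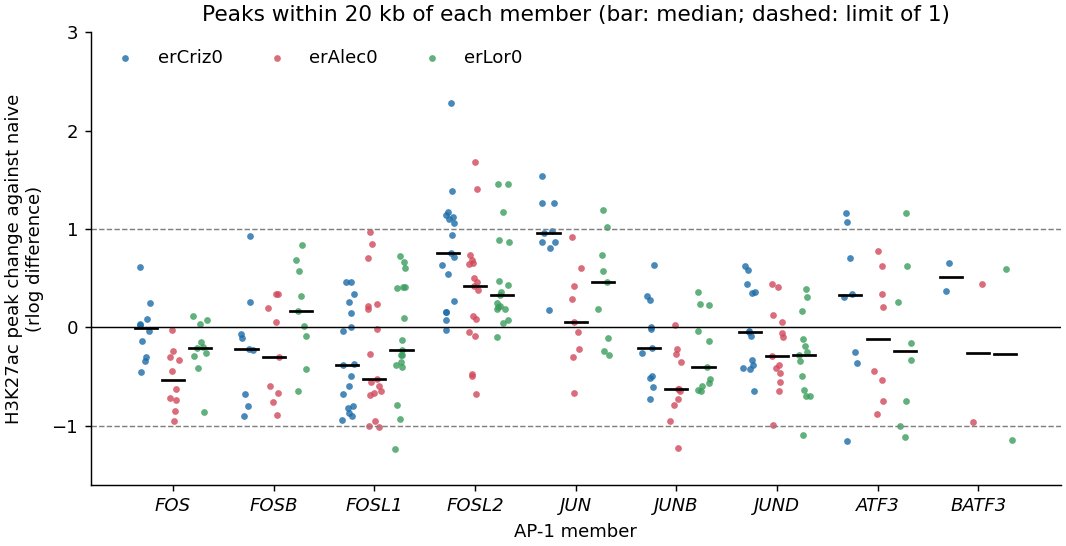
H3K27ac change against naive cells (rlog difference) of each peak within 20 kb of a member, with 1 point per peak, black bars at the median per member and line, and dashed lines at the limit of 1. All 9 peaks of JUN and 16 of 17 of FOSL2 lie above 0 in erCriz0, and all 10 of FOS lie below 0 in erAlec0.

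The peak over the FOSL2 start, chr2:28389114-28396749, had levels of 10.75 in naive cells, 11.89 in erCriz0, 11.44 in erAlec0 and 11.63 in erLor0. This start peak rose by 1.14 in erCriz0 and was higher by 0.69 and 0.89 in the other lines, so that its signal exceeded that of naive cells in all 3. In erCriz0 the median change of the 71 other peaks between 28 and 29 Mb of chromosome 2 was 1.09. The largest rise of any member peak was 31244 bp downstream of the FOSL2 start at chr2:28422403-28425803. Its level was 7.08 in naive cells, 9.36 in erCriz0, 8.76 in erAlec0 and 7.95 in erLor0, which is a rise of 2.28 in erCriz0 and of 1.68 in erAlec0. The peak beyond it, chr2:28433315-28440868, rose in all 3 lines, by 1.39, 1.41 and 1.17, and was the only one of the 96 member peaks to do so. Upstream of the gene, chr2:28375165-28380602 and chr2:28380693-28383403 each rose by 1.46 in erLor0 and differed from naive cells by at most 0.27 in the other lines. The peak chr2:28387860-28389004 had the largest drop of FOSL2 in erAlec0, at -0.68.

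The peak that rose in all 3 lines holds TGACTCA at 2 places, and these are shown with 20 bases on either side, since no other member peak rose in every resistant line. It is 7554 bp long, and all peaks together held 2.14 matches per 10 kb, so that 2 matches do not set it apart. Windows are printed 5′ to 3′ in the orientation that reads TGACTCA, in capitals, from hg38.
FOSL2 downstream site a, chr2:28434104-28434150, - strand: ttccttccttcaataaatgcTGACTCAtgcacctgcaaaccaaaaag
FOSL2 downstream site b, chr2:28439158-28439204, + strand: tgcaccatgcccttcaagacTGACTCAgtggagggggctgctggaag
The risen peak chr2:28422403-28425803 holds none. Of the 17 peaks of FOSL2, 3 held TGACTCA, including the one over the start, whose match is that of the promoter printed above.

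FOSL2 and ALK lie in the same stretch of chromosome 2, and in erCriz0 most genes and peaks around FOSL2 rose with it. Copy number was not analysed here, and a higher number of copies cannot be told apart from higher transcription or acetylation in these values. By fluorescence in situ hybridization, the study reported amplified EML4-ALK in most erCriz cells and in a part of the erAlec cells. It found no such amplification in erLor cells. Whether the extra copies include FOSL2 was not tested here. The 5 nearest expressed genes on either side, which were chosen after their values were seen, had RNA changes in erCriz0 from 0.07 in SUPT7L to 1.42 in PPP1CB, with a median of 1.04, and 6 of the 10 rose. One of the 6, ENSG00000270210, reached the expressed limit in erCriz0 only, and with the limit set on the mean over the 4 lines 5 of 9 rose. The median of the same 10 genes was 0.19 in erAlec0 and 0.03 in erLor0, where none rose. ALK itself, at chr2:29192774-29921586, had RNA changes of 2.47, 1.40 and -0.08 in the 3 lines. Of the 71 other peaks between 28 and 29 Mb of chromosome 2, 70 were higher in erCriz0 than in naive cells and 39 rose, with a median of 1.09, above the median of 0.76 over the 17 peaks of FOSL2. In erAlec0 and erLor0 the medians of these 71 peaks were 0.09 and -0.04, below those of FOSL2 at 0.42 and 0.33. A second window, up to 0.5 Mb beyond either end of FOSL2, held 72 other peaks, with a median of 1.13 in erCriz0. Against the median of these 72, that of the FOSL2 peaks was lower by 0.37 in erCriz0. It was higher by 0.32 in erAlec0 and 0.39 in erLor0. The downstream peak with the rise of 2.28 was the second highest of the 88 peaks between 28 and 29 Mb in erCriz0.

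**Figure D4:**
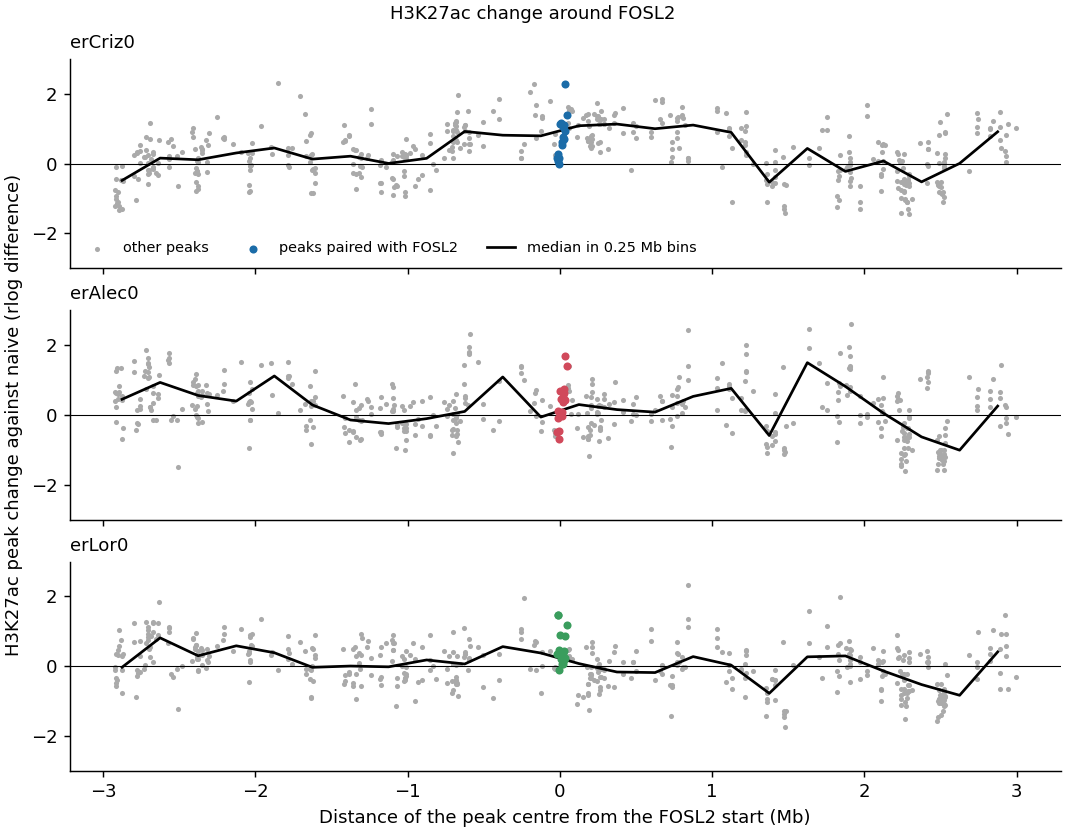
H3K27ac change against naive cells (rlog difference) of every peak within 3 Mb of the FOSL2 start in erCriz0, erAlec0 and erLor0, with peaks paired with FOSL2 in colour, other peaks in grey and the median in bins of 0.25 Mb as a line. In erCriz0 nearly all peaks around FOSL2 lie above 0, with a median of 1.09 over the 71 other peaks between 28 and 29 Mb, and in erAlec0 and erLor0 the same peaks have medians of 0.09 and -0.04.

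By the Euclidean distance of the 3 RNA changes, the expressed genes most like FOSL2 were ESYT2 on chromosome 7 at a distance of 0.05, PDE4D on chromosome 5 at 0.08 and ANKRD36C on chromosome 2 at 0.08. ESYT2, a tether between the endoplasmic reticulum and the plasma membrane, had changes of 1.24, 0.30 and 0.12. PDE4D, a cyclic AMP phosphodiesterase, had changes of 1.21, 0.33 and 0.11. The distance is a likeness over 3 changes that share 1 naive library.

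At JUN, acetylation was higher in erCriz0 with little difference in RNA. All 9 peaks of JUN were higher in erCriz0 than in naive cells, with a median of 0.96, and 3 rose, while JUN RNA was higher by 0.33. In the surrounding 0.5 Mb, other peaks had a median change of -0.08, so that the peaks of JUN were higher than their neighbours by 1.04. The peak over the start, chr1:58781799-58787478, had levels of 9.38 in naive cells, 10.25 in erCriz0, 9.68 in erAlec0 and 10.12 in erLor0. The largest rise was at chr1:58802864-58811490, a peak of 8627 bp upstream of JUN whose centre is at -23129 bp from the start. Its level was 9.05 in naive cells, 10.59 in erCriz0, 8.38 in erAlec0 and 8.78 in erLor0. Against naive cells the changes were 1.54, -0.67 and -0.28. Only erCriz0 was thus above naive cells at this peak. It holds TGACTCA at 2 places, which in 8627 bp does not set it apart from all peaks, with 2.14 matches per 10 kb. These places are shown because this is the strongest JUN peak to rise.
JUN upstream site a, chr1:58804722-58804768, + strand: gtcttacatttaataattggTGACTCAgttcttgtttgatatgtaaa
JUN upstream site b, chr1:58805926-58805972, + strand: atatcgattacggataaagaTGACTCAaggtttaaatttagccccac
In erLor0, 2 weaker peaks downstream of JUN rose, chr1:58763978-58764504 by 1.02 and chr1:58773180-58773648 by 1.20. The highest change at JUN in erAlec0 was 0.92, at the first of these, and no peak of JUN fell in any line.

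JUNB lay under the widest member peak, 23737 bp at chr19:12773914-12797650, which had levels of 12.95 in naive cells, 13.22 in erCriz0, 12.67 in erAlec0 and 12.81 in erLor0. This peak holds 7 of the 8 TGACTCA matches of the JUNB peaks, beside 2.14 matches per 10 kb over all peaks. The changes of this peak, 0.27, -0.27 and -0.14, had the opposite sign to the RNA changes of JUNB in erCriz0 and erAlec0, which were -0.44 and 0.42. A weaker upstream peak, chr19:12772311-12773341, fell by 1.23 in erAlec0. The peak over the JUND start, chr19:18278025-18281801, exceeded its naive level by 0.35, 0.41 and 0.39 in erCriz0, erAlec0 and erLor0, while JUND RNA differed by up to 1.45 between the same lines. Downstream of JUND, chr19:18272590-18277913 had levels of 8.28, 8.86, 7.28 and 7.18, higher than naive cells in erCriz0 by 0.58, lower by 0.99 in erAlec0 and fallen by 1.09 in erLor0.

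At FOS all 10 peaks were lower in erAlec0 than in naive cells, with a median of -0.53, while the surrounding 0.5 Mb had a median of 0.42 over its other peaks and FOS RNA was higher by 0.30. The peak over the FOS start, chr14:75276051-75280592, had levels of 9.91 in naive cells, 10.53 in erCriz0, 9.18 in erAlec0 and 9.66 in erLor0. A downstream peak, chr14:75293345-75296650, had changes of 0.02, -0.72 and -0.20. No peak of FOS or FOSB rose or fell in any line. The canonical start of FOSB fell between 2 peaks, of which the one over another annotated start, chr19:45468152-45471489, had changes of -0.11, -0.67 and 0.02. The strongest FOSB peak, chr19:45448753-45457871, had changes of -0.07, 0.34 and 0.57.

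At FOSL1 the peak over the start, chr11:65898420-65900457, had levels of 7.02, 7.35, 7.00 and 7.62, highest in erLor0. It holds TGACTCA at 2 places, of which one is at the start itself and one is in the first intron. The latter is shown because it lies under the acetylation of the FOSL1 start.
FOSL1 intron site, chr11:65899366-65899412, + strand: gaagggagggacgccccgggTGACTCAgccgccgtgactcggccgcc
Within the gene, chr11:65894205-65894600 and chr11:65896418-65897292 fell by 1.01 each in erAlec0, and upstream chr11:65902500-65902728 fell by 1.24 in erLor0. The highest change at FOSL1 was 0.97, in erAlec0, at chr11:65879792-65881258. The median over the 17 peaks was below 0 in each line, at -0.38, -0.52 and -0.24. FOSL1 RNA was above its naive level in erAlec0 and erLor0. This median weighs weak and strong peaks alike. The start peak had changes of 0.34, -0.01 and 0.61 in erCriz0, erAlec0 and erLor0. The strongest peak, chr11:65886362-65892969, had changes of 0.14, -0.27 and -0.12, and the next, chr11:65916592-65919000, of 0.01, 0.18 and 0.40.

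At ATF3 the peak over the canonical start, chr1:212608617-212609923, had levels of 6.47 in naive cells, 7.17 in erCriz0, 7.24 in erAlec0 and 7.09 in erLor0, higher than in naive cells by 0.71, 0.78 and 0.63. In erCriz0, 2 peaks in introns rose, chr1:212565961-212568105 by 1.07 and chr1:212596281-212596947 by 1.16, and each holds TGACTCA, shown here for the peak with the larger rise.
ATF3 intron site, chr1:212596493-212596539, + strand: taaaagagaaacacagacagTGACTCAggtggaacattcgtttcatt
A peak upstream of the gene, chr1:212560931-212561281, fell by 1.16 in erCriz0 and 1.12 in erLor0, and chr1:212558049-212559407 rose by 1.17 in erLor0. BATF3 had 2 peaks, neither over its start. The one downstream of the gene, chr1:212670708-212671743, fell by 1.14 in erLor0 and had changes of 0.66 and -0.97 in erCriz0 and erAlec0.

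The acetylation at the start and the RNA did not always have the same sign. RNA was taken after 48 h without inhibitor, and the study's methods do not say whether this also held for ChIP. In erCriz0 the peak over the canonical start was higher than in naive cells for all 7 members that have one, and RNA was lower for 5 of these 7, FOS, FOSL1, JUNB, JUND and ATF3. In erAlec0 RNA was higher for all 7 and the peak was lower for 3, FOS, FOSL1 and JUNB. In erLor0 the 2 signs were equal for all 7. These are signs of single libraries, and several of the values are near 0, such as the RNA change of 0.00 of FOS in erCriz0 and the peak change of -0.01 of FOSL1 in erAlec0.

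Of the genes known to be driven by AP-1, MMP1 alone rose in all 3 lines. This list and the gene lists that follow were chosen with earlier results of these data known. Their counts beside the shares of all expressed genes are thus a description and no independent measure of AP-1. Of the 17 listed, 13 were expressed. MMP13 had no row, and MMP3, MMP9 and IL6 were below the limit. In erAlec0 6 of 13 rose, among them MMP1, MMP10, CXCL8, IL11 and HBEGF, with a median of 0.90 over the 13, where 2.46% of expressed genes rose. In erLor0 4 of 13 rose, MMP1, MMP10, PLAU and CXCL8, with a median of 0.54, beside 1.10% of expressed genes. In erCriz0 2 of 13 rose, MMP1 and ITGA2, with a median of 0.14, beside 2.65% of expressed genes. MMP10 and IL11 reached the expressed limit in erAlec0 only, and so entered these counts through the line in which they were highest. With the limit set on the mean over the 4 lines, a choice made after seeing the data, both were left out, 4 of 11 rose in erAlec0 with a median of 0.59, 3 of 11 in erLor0 with 0.41 and 2 of 11 in erCriz0 with 0.14, beside 2.42%, 1.09% and 2.36% of all genes kept in the same way. None of the 13 fell in any line. MMP1, the collagenase of interstitial matrix, had levels of 6.14 in naive cells, 8.56 in erCriz0, 9.08 in erAlec0 and 9.13 in erLor0, which are rises of 2.41, 2.94 and 2.98. CXCL8, which encodes the chemokine interleukin 8, had levels of 8.48, 8.04, 11.21 and 10.03, with rises in erAlec0 and erLor0 only. HMGA1, a chromatin architectural protein, had the largest drop of the list, -0.74 in erCriz0. CCND1, the cyclin of entry into S phase, had changes of -0.17, 0.02 and 0.02. The endothelial marker CDH5 also rose in erAlec0 and erLor0, by 1.68 and 1.54, from a level of 4.10 in naive cells, and reached the expressed limit only in those lines. Of the 3 endothelial markers it alone was expressed, while the levels of PECAM1, from -0.13 to -0.02, and of VWF, from 0.05 to 0.19, were below the expressed limit in all 4 lines. Of 3 fibroblast markers with a row, COL1A1 was expressed and did not rise.

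Other immediate early genes, which like FOS respond to growth signals within minutes, showed the same order of medians. Of 18 expressed, 3 rose in erAlec0, the Krüppel-like factors KLF2 by 1.65 and KLF6 by 1.46 and the matrix protein CCN1 by 1.11, beside 2.46% of expressed genes, and none rose or fell in erCriz0 or erLor0. The medians over the list in the 3 lines were 0.05, 0.72 and 0.34. This order was not confined to AP-1 and immediate early genes. The 6 epithelial markers had it too, with medians of 0.02, 0.32 and 0.17. So did the zipper partners listed below, at -0.01, 0.52 and 0.42. A different order was seen in the upstream kinases, at -0.09, -0.06 and 0.04. It also differed in the regulators of FOS and JUN transcription, at -0.02, 0.07 and 0.16. The nuclear receptor NR4A1 had the largest drop, -0.81 in erCriz0, and EGR1, the zinc finger factor induced by ERK, had levels of 12.99 in naive cells, 12.23 in erCriz0, 12.83 in erAlec0 and 12.81 in erLor0. EGR3 was below the expressed limit.

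Among upstream kinases, 2 of 12 expressed rose in erAlec0, MAPK7, which encodes ERK5, by 1.30 and MAP2K3, an activator of p38, by 1.37, beside 2.46% of expressed genes. MAPK7 also rose in erLor0 by 1.02, beside 1.10%, and no listed kinase rose in erCriz0 or fell in any line. MAPK3, which encodes ERK1, had the largest drop, -0.60 in erCriz0. Among zipper partners, 2 of 8 expressed rose in erAlec0, CREB5 by 1.61 and MAFK by 1.05, beside the same 2.46%, and none in the other lines. ATF7 was higher by 0.99 in erAlec0, and ATF2 had the largest drop, -0.26 in erLor0. None of the 8 regulators of FOS and JUN transcription rose or fell in any line. MEF2D had the highest value of these, 0.81 in erAlec0, and ELK1 the lowest, -0.65 in erCriz0. SRF, the serum response factor, was higher by 0.41 in erAlec0.

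The AP-1 motif was counted next in all peaks, as TGACTCA on either strand within 300 bases at the peak centre. It was present in 7500 of 126470 peaks, 5.93%. In erCriz0 it was in 897 of the 8858 peaks that rose, 10.1% (95% Wilson interval 9.52 to 10.8), and in 366 of the 7514 that fell, 4.87% (4.41 to 5.38). In erAlec0 the order was the reverse, with 4.97% (4.66 to 5.30) of the 17855 peaks that rose and 7.06% (6.61 to 7.53) of the 11903 that fell. In erLor0 the shares were 4.33% (3.94 to 4.76) of 9425 and 7.27% (6.81 to 7.77) of 11150. Expressed as the share in risen over that in fallen peaks, the ratios were 2.08 (1.85 to 2.34), 0.70 (0.64 to 0.77) and 0.60 (0.53 to 0.67). The intervals cover the counting of peaks in these libraries only, and neighbouring peaks are not independent.

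The forkhead, TEAD and ETS letters were counted in the same way for comparison. TGTTTAC was in 5.46% of risen and 4.33% of fallen peaks in erCriz0, in 4.61% and 4.75% in erAlec0 and in 4.37% and 5.20% in erLor0. For ACATTCC these shares were 3.70% and 4.55% in erCriz0, 4.86% against 4.23% in erAlec0 and, in erLor0, 3.78% against 4.59%. For CCGGAAG they were 1.83% and 0.97% in erCriz0, 1.12% against 1.22% in erAlec0 and, in erLor0, 1.82% against 1.09%. The cyclic AMP element TGACGTCA was in 325 of all peaks, 0.26%, and in 11 risen and 11 fallen peaks in erCriz0, too few to set the lines apart. Of these motifs AP-1 had the highest ratio of risen to fallen peaks in erCriz0 and the lowest in erAlec0 and erLor0. In erCriz0 its ratio of 2.08 was near that of CCGGAAG, 1.88, which lies within the interval given above for AP-1. The other motifs were not counted again among peaks of like length, so this order is not matched for length.

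Set directly against erCriz0, without the naive library, the AP-1 motif was in 5.08% (4.79 to 5.39) of the peaks at least 1 higher in erAlec0, which are 16.1% of all peaks, and in 11.1% (10.6 to 11.6) of those at least 1 lower, 12.0% of all peaks. Against erLor0 the shares were 4.84% (4.44 to 5.27) of the peaks higher in erLor0, 8.12% of all peaks, and 11.5% (11.0 to 12.0) of those lower, 11.3% of all peaks.

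**Figure D5:**
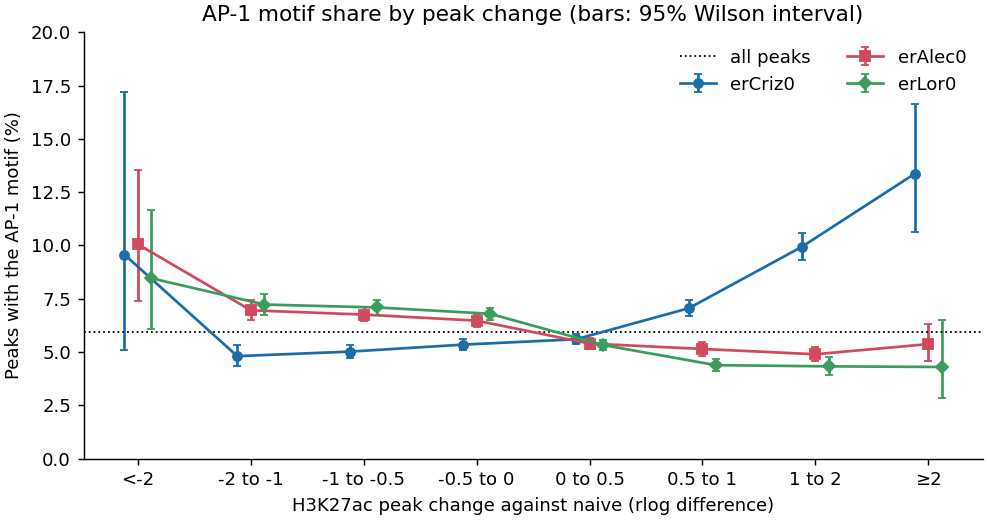
Share of H3K27ac peaks with TGACTCA within 300 bases at the centre (%), by the peak's change against naive cells (rlog difference) in erCriz0, erAlec0 and erLor0, with 95% Wilson intervals as bars and the share in all peaks, 5.93%, as a dotted line. The share reaches 9.94% at changes from 1 to 2 and 13.4% at 2 or more in erCriz0, and lies at 4.90% and 5.37% in erAlec0 and at 4.33% and 4.30% in erLor0.

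Risen peaks were longer than fallen ones, with a median of 917 against 493 bp in erCriz0, 667 against 619 bp in erAlec0 and 1005 against 575 bp in erLor0. More of them also had their centre within 1000 bp of an annotated start. These shares were 19.3% against 9.94% in erCriz0, 15.5% against 10.5% in erAlec0 and 24.9% against 9.09% in erLor0. Among peaks of 300 to 1000 bp, a choice made after seeing the data, the ratios were 1.68 (1.40 to 2.01), 0.87 (0.75 to 1.00) and 0.64 (0.52 to 0.77), so that the interval in erAlec0 reached 1. With a limit of 2 the ratio in erCriz0 was 1.40 (0.72 to 2.70), since 9 of the 94 peaks that fell by more than 2 also held the motif.

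Among the members' own peaks, TGACTCA anywhere in the peak was found in 20 of 96, 20.8%, against 18.5% of all peaks, and at 2.10 matches per 10 kb against 2.14 in all peaks. In erCriz0 it was in 5 of the 12 member peaks that rose and in 15 of the 83 that neither rose nor fell, while over all peaks it was in 32.3% of those that rose. In erAlec0 it was in 1 of the 2 risen member peaks, against 17.0% of all risen peaks, and in erLor0 in 2 of 6, against 20.5%. Counts this small do not set the member peaks apart. The 5 in erCriz0 comprise 2 peaks of FOSL2, 1 of JUN and 2 of ATF3.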

How the data were processed

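RNA-seq and H3K27ac ChIP-seq values were taken for 4 of the 8 samples of the series, naive, erCriz0, erAlec0 and erLor0. The samples erCriz1, erLor1, Lor 2w and Pooled Input were not analysed here. The deposited table pairs peaks with genes up to 20 kb apart, and its values are log2 levels from the rlog function of DESeq2, which the authors ran over the 4 libraries. RNA reads (MiSeq) went through HISAT2 on hg38 and HTSeq-count. ChIP reads of 75 nt went through BWA, removal of duplicates and of mapping qualities under 25, MACS2 at q under 0.05, merging of the peak sets of 4 samples, a blacklist filter and featureCounts. Versions are not given in the sources used here, subtraction of the input is not stated, and the submitters' processing notes name bcl2fastq, BWA and hg38. The authors' columns of correlation, p-value, adjusted p-value and means were not used.

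The members and gene lists were chosen with earlier results of these data known. Some listed genes are not reported here by name. Changes, medians and motif shares were computed in Python 3.11.15 with pandas 2.3.3, numpy 2.4.6 and scipy 1.17.1, and plotted with matplotlib 3.10.9. Expressed genes reached log2 of 25 and a gene or peak was called at a change of 1. No filter was set on peaks. Peak sequences came from hg38, starts from GENCODE release 44 and promoters from RefSeq. Named were all members, up to a few genes per list with the largest rises and falls, the 3 genes nearest to a called member, and for each member the peak over its start and those with the largest rise and fall. The code for calls and motif counts was run on simulated data with planted answers. This checks the code only and not the unknown error between libraries. Alternatives were other limits, scalings, peak filters, distances, regional medians and motif windows.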

Additional observations from a re-analysis of the deposited data

Results flagged for a closer look

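JUND had RNA changes of at least 0.5 in opposite directions, -0.87 in erCriz0 and 0.59 in erAlec0, which is what singled it out among the 8 expressed members. Each value is 1 library against the same naive library, and the difference between the lines was not tested.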

How the results depend on the processing

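Each line has 1 library, so no replicate could be left out and read depth is unknown. Centring and quantile normalization kept the counts of RNA calls. Centring gave 16 risen peaks in erCriz0, 4 fallen in erAlec0 and 3 fallen in erLor0, and quantile normalization gave 5 fallen in erAlec0, 4 risen in erLor0 and 3 fallen in erLor0. The median over the 96 peaks went to 0.20 (centred) and 0.04 (quantile) in erCriz0, and to 0.09 and -0.06 in erLor0, so that centring turned its sign there. A limit of log2 of 1.5 gave 2 members lower in erCriz0, 2 higher in erAlec0 and 1 higher in erLor0, and 27, 13 and 16 risen and 14, 30 and 16 fallen peaks in the 3 lines. A limit of 2 left 0 members, 1 risen peak in erCriz0 and 0 other peaks. Peaks at most 5 kb away gave 7, 0 and 0 risen. Peaks paired with 1 gene were 2 in all, with 1 risen in erCriz0, 0 other calls and medians of 0.76 in erCriz0 and 0.39 in erAlec0, where the sign turned. Peaks that reach log2 of 15 gave 3 fallen in erLor0 and medians of -0.08 in erAlec0 and 0.10 in erLor0. Without FOSL2, a setting added after seeing the data, 5, 0 and 3 peaks rose and the medians were -0.03, -0.33 and -0.16. Subtracting the median of other peaks within 5, 2 or 0.5 Mb, the last added after seeing the data, moved no median of the 96 peaks by 0.2 or more, but within 0.5 Mb left 0.00 in erCriz0, -0.09 in erAlec0 and 0.11 in erLor0. The ratio of motif shares kept its side of 1 in all settings. In erCriz0 it was 2.50 over whole peaks, 1.66 for TGANTCA, 1.40 at a limit of 2 and 1.68 for peaks of 300 to 1000 bp. In erAlec0 it was 0.53 at a limit of 2 and 0.87 for peaks of 300 to 1000 bp. In erLor0 it was 0.89 over whole peaks, 0.51 for peaks that reach log2 of 15 and 0.51 at a limit of 2. The cause of these shifts was not tested.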
